A study of Rattus norvegicus with 65 samples.

Results

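The hepatic ABC efflux transporters are ATP-driven pumps that move bile salts, lipids, sterols, drugs and conjugates out of the hepatocyte. 8 genes were taken by symbol. Abcb11, Abcc2, Abcb4, Abcb1a, Abcg5 and Abcg8 code for pumps of the canalicular membrane, which faces the bile, and Abcc3 and Abcc4 code for pumps of the basolateral membrane, which faces the blood. Every probe set annotated to one of these symbols and to no other was kept, which gave 9 of the 31099 probe sets on the array and 8 of the 14217 genes that the array names. Abcb1a had 2 such probe sets and each other gene had 1. 1 further probe set, annotated to both Abcb1a and Abcb1b, was kept apart and is described separately. All 8 genes passed the filter on low signals in both fits.

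Liver RNA of 65 male Sprague-Dawley rats, 6 weeks old and with no altered genotype given in the labels, was hybridised to 1 Affymetrix array per rat. 3 genotoxic hepatocarcinogens (2-AAF, 3MeDAB and DEN) and 3 nongenotoxic ones (1,4-Dioxane, Clofibrate and DL-Ethionine) formed the GTX and NGTX training sets. Each training compound was given for a long and a short treatment, and each set had its own 3 control rats, the GTX control and the NGTX control. 4 further compounds (DCP, ME, SN and Urethane) formed a test set without control rats, also with a long and a short treatment. Each group held 3 rats apart from DEN short, which held 2 after 1 array was excluded by the submitters. The labels give 72 hours for long and 3 hours for short treatment, while the treatment protocol describes the repeated groups as dosed 3 times with autopsy a day after the last dose, so the words long and short are used. For the test set the labels give 3 doses for long and 1 dose for short treatment, with dose figures that carry no unit, of 50 for DCP, 300 for ME, 50 for SN and 500 for Urethane. The controls are called untreated in one label and carry the code vc in another, and no time is given for them. The full names of the compounds are listed in the design text but are not paired there with these abbreviations.

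Bile salts leave the hepatocyte mainly through the Abcb11 protein, the bile salt export pump, and conjugated bilirubin and other organic anions leave through the Abcc2 protein (MRP2). Abcb4 moves phosphatidylcholine into bile, and Abcg5 and Abcg8 work as a heterodimer that excretes cholesterol and plant sterols. Abcc3 (MRP3) and Abcc4 (MRP4) return bile salts and conjugates to the blood, and in rodents both are known to be raised when canalicular export is impaired. The nuclear receptors FXR, LXR, CAR, PXR and PPAR alpha and the transcription factors NRF2 and AHR are known regulators of one or more of these genes.

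The stretch from 250 bases before to 50 bases after the start of the gene was available for 6 of the 8 genes, from RefSeq on the GRCr8 rat assembly. No such entry was available for Abcb11 and Abcc3. The stretches are shown for Abcg5, whose start region it shares with Abcg8, and for Abcc2, Abcb1a and Abcc4, a canalicular pump that fell in DL-Ethionine long livers and a canalicular and a basolateral pump that rose there. 3 short motifs were searched on both strands and stand in capitals: TGACNNNGC, the core of the antioxidant response element, GCGTG, the core bound by AHR, and AGGTCA, a nuclear receptor half-site. The Abcg5 stretch lies at chr6:15717686-15717985 on the plus strand, the Abcc2 stretch at chr1:252613625-252613924 on the plus strand, the Abcb1a stretch at chr4:26397599-26397898 on the minus strand and the Abcc4 stretch at chr15:102181315-102181614 on the minus strand.
Abcg5: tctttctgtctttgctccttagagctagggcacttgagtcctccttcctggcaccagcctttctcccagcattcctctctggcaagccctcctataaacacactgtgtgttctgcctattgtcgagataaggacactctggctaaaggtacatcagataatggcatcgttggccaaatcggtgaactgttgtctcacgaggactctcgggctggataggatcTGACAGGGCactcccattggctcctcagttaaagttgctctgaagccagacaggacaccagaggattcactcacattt
Abcc2: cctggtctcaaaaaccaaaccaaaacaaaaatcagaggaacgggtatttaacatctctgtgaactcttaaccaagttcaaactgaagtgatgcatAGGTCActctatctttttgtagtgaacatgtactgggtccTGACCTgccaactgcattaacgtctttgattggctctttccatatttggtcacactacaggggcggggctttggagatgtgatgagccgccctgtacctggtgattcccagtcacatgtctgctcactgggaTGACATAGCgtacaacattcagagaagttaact
Abcb1a: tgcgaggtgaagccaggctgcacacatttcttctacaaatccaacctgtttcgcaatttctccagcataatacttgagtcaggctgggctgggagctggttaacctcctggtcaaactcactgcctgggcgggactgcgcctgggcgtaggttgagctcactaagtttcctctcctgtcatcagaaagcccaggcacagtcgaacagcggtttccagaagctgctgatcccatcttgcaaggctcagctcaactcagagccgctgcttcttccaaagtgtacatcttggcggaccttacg
Abcc4: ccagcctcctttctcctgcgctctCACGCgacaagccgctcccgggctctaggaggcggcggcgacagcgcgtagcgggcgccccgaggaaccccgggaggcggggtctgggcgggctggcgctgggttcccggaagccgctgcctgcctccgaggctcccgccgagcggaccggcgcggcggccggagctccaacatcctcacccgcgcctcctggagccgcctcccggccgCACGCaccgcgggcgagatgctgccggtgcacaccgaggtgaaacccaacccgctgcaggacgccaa
The stretches of Abcg5 and Abcg8 overlap by 295 bases on opposite strands, and the 2 starts lie 205 bases apart. TGACNNNGC was found once in Abcc2 and once in the stretch that Abcg5 and Abcg8 share, against 12.1% of all 33469 promoter stretches of this length. AGGTCA was found 2 times in Abcc2 and in 16.2% of all stretches. GCGTG was found 2 times in Abcc4 and 4 times in Abcb4, and in 29.7% of all stretches. None of the 3 motifs was found in the Abcb1a stretch. These matches describe letters in a window and are no evidence of binding.

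The first comparison set each training group against the control rats of its own set. Values are log2 signals, so that a difference of 1 is a doubling, and differences are given as treated minus control with the standard error (SE) of the fit. A gene was called where the adjusted p, by limma with Benjamini-Hochberg adjustment over the 10675 genes tested, was under 0.05. In the long groups of 2-AAF, 3MeDAB and DL-Ethionine the basolateral pumps Abcc3 and Abcc4 and the canalicular drug pump Abcb1a rose, while the bile salt export pump Abcb11 and the sterol pump subunit Abcg5 fell. In DEN long livers Abcb1a rose and Abcb11 fell, and no other member was called. No member was called after long treatment with 1,4-Dioxane or Clofibrate.

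Of the 96 tests of 8 members in 12 groups 27 were called, 13 higher and 14 lower, a share of 28.1% against 16.8% of all tests over all genes in the same comparisons (9.38% higher and 7.39% lower). After long treatment the basolateral members were higher in 6 of 12 tests and lower in 0, with a median difference of 1.21, and the canalicular members were higher in 4 of 36 tests and lower in 11, with a median difference of -0.01. Over all genes 26.5% of the long tests were called, 15.8% higher and 10.7% lower. After short treatment the basolateral members were higher in 2 of 12 tests and lower in 1, and the canalicular members were higher in 1 of 36 and lower in 2, against 6.99% called over all genes, 2.96% higher and 4.04% lower. The 6 groups of a set share their 3 control rats, so these tests are not independent of each other. In whole liver, fewer cells of a type and less RNA per cell cannot be told apart.

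**Figure D1:**
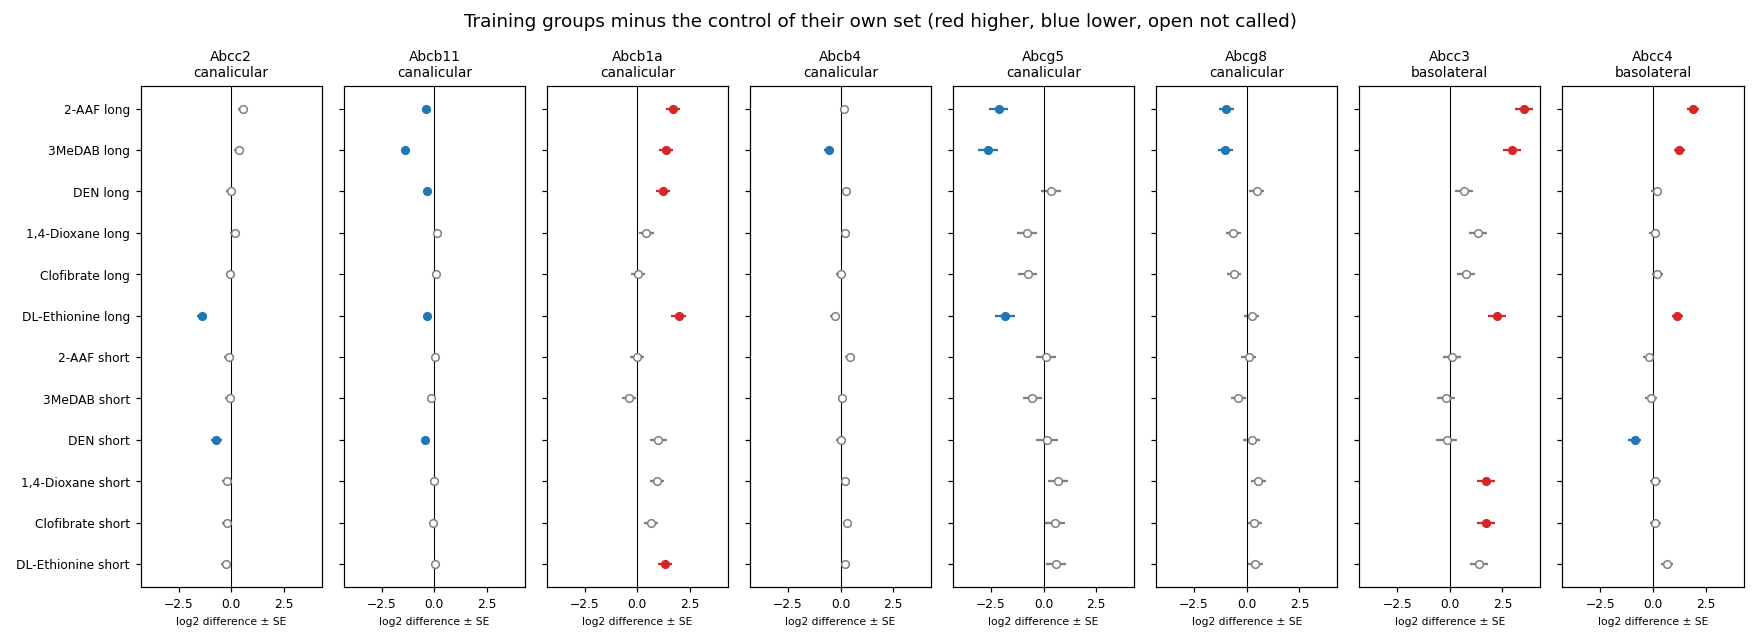
Difference from the control of the own set for each of the 8 pumps in the 12 training groups, as log2 signal with its standard error. Filled red dots are called higher, filled blue dots are called lower and open dots are not called. Abcc3 and Abcc4 stand above 1 in the long groups of 2-AAF, 3MeDAB and DL-Ethionine, while Abcg5 stands below -1.5 in the same groups.

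Abcc3, the basolateral pump for glucuronide conjugates and bile salts, had the largest difference from a control of the 8 members. Its log2 signal was 9.67, 10.05 and 10.87 in the 2-AAF long rats and 10.17, 9.14 and 9.49 in the 3MeDAB long rats, against 6.89, 6.26 and 6.85 in the GTX control rats. All 6 treated rats lay above all 3 controls. The difference was 3.53 ± 0.43 for 2-AAF long (SE, n = 3 against 3, adjusted p = 3.49e-07 by limma), an 11.5-fold higher signal, and 2.93 ± 0.43 for 3MeDAB long (adjusted p = 1.07e-06). DEN long rats had 7.44, 7.65 and 6.90, which lay just above the control range, and the difference of 0.66 ± 0.43 was not called (adjusted p = 0.332). In the 2-AAF short, 3MeDAB short and DEN short rats the signal lay between 5.34 and 7.19 and no difference was called.

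In the NGTX set Abcc3 was measured at 8.65, 8.69 and 9.26 in DL-Ethionine long rats, against 7.04, 6.65 and 6.24 in the NGTX control rats, a difference of 2.22 ± 0.43 (adjusted p = 5.69e-05). All 3 treated rats exceeded the controls by more than the spread of either group. Short treatment with 1,4-Dioxane (7.95, 8.43 and 8.70) and with Clofibrate (8.32, 8.19 and 8.64) also gave Abcc3 signals above every control rat, with differences of 1.72 ± 0.43 (adjusted p = 0.0152) and 1.74 ± 0.43 (adjusted p = 0.0235). Both calls were sensitive to single rats. The 1,4-Dioxane call was lost without 1,4-Dioxane short replicate 3 or NGTX control replicate 2 or 3, and the Clofibrate call held in only 1 of the 6 fits that left out a rat of the compared groups. DL-Ethionine short gave 8.14, 8.14 and 7.82, and its difference of 1.39 ± 0.43 missed the threshold (adjusted p = 0.0518). After long treatment the 1,4-Dioxane rats were spread over 8.96, 6.56 and 8.40 and the Clofibrate rats lay at 7.17, 7.31 and 7.79, and neither group was called.

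Abcc4, the basolateral pump for cyclic nucleotides and for bile salts with glutathione, was called higher in the same 3 long groups, with smaller differences. It stood at 7.04, 7.89 and 8.71 in 2-AAF long rats and at 7.47, 7.00 and 7.23 in 3MeDAB long rats, against 5.83, 6.09 and 6.00 in GTX control rats. The groups did not overlap, and the differences were 1.91 ± 0.27 (adjusted p = 3.73e-06) and 1.26 ± 0.27 (adjusted p = 0.000212). DL-Ethionine long rats had 7.51, 7.58 and 7.63, against 6.45, 6.50 and 6.29 in NGTX control rats, a difference of 1.16 ± 0.27 (adjusted p = 0.000527). DEN long rats, at 6.17, 5.94 and 6.35, overlapped the controls. DEN short was the only group called lower, with 4.95 and 5.26 and a difference of -0.87 ± 0.30 (adjusted p = 0.0424). That call was lost when any of the 5 rats compared was left out, with values between -1.02 and -0.72.

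**Figure D2:**
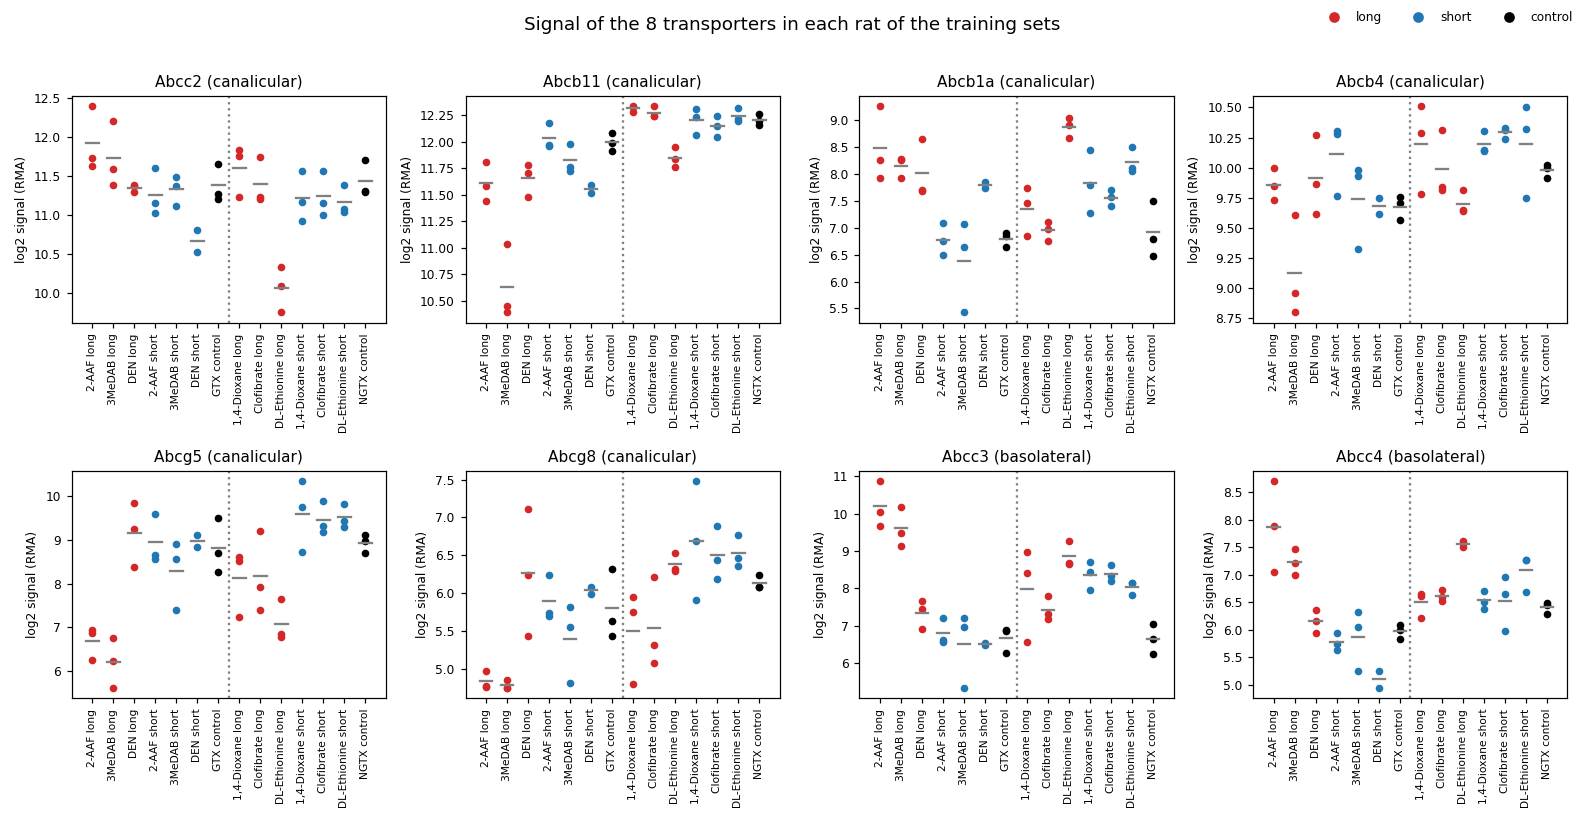
log2 signal of the 8 pumps in every training rat. Each dot is a rat, the grey bars are group means, red marks long treatment, blue marks short treatment and black marks the control, and a dotted line parts the GTX from the NGTX set. Each panel has its own axis. Abcc3 lies between 9.14 and 10.87 in the 2-AAF long and 3MeDAB long rats and between 6.26 and 6.89 in the GTX control rats.

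Abcb11, the bile salt export pump, varied little between rats of a group, with a median SD of 0.14 in the GTX set, and fell in 5 of 12 groups. It stood at 11.04, 10.39 and 10.46 in 3MeDAB long rats, against 11.92, 11.99 and 12.09 in GTX control rats. All 3 treated rats lay below all 3 controls, and the difference was -1.37 ± 0.12 (adjusted p = 4.31e-11). 2-AAF long rats had 11.81, 11.45 and 11.58, DEN long rats had 11.48, 11.78 and 11.70 and DEN short rats had 11.52 and 11.59, all below every GTX control rat. The differences were small, at -0.39 ± 0.12 for 2-AAF long (adjusted p = 0.0117), -0.34 ± 0.12 for DEN long (adjusted p = 0.0406) and -0.44 ± 0.13 for DEN short (adjusted p = 0.0166). DL-Ethionine long rats had 11.76, 11.83 and 11.95, against 12.16, 12.20 and 12.27 in NGTX control rats, a difference of -0.36 ± 0.12 (adjusted p = 0.0107). The calls in 3MeDAB long and DL-Ethionine long held whichever rat was left out. The 2-AAF long call was lost without 2-AAF long replicate 2 or GTX control replicate 3, the DEN short call without either DEN short rat or GTX control replicate 3, and the DEN long call held in only 1 of 6 such fits.

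Abcc2, the canalicular pump for conjugated organic anions, fell in DL-Ethionine long livers. Its signal was 9.75, 10.09 and 10.34 in those rats, against 11.71, 11.30 and 11.30 in NGTX control rats. The groups did not overlap, with a difference of -1.38 ± 0.23 (adjusted p = 5.29e-06), a 2.6-fold lower signal. Abcc2 and Abcc3 thus moved in opposite directions in these rats. In 2-AAF long rats Abcc2 stood at 11.63, 11.73 and 12.40 and in 3MeDAB long rats at 12.21, 11.39 and 11.59, against 11.66, 11.21 and 11.27 in GTX control rats. Those groups overlapped the controls, and the differences of 0.54 ± 0.23 (adjusted p = 0.0639) and 0.35 (adjusted p = 0.194) were not called. DEN short rats had 10.81 and 10.52, below all 3 controls, and the call of -0.71 ± 0.25 (adjusted p = 0.0466) was lost without any 1 of the 5 rats, with values between -0.86 and -0.57.

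Abcb4, the phosphatidylcholine floppase, had the smallest range of group means among the members in the GTX set, at 1.00. It stood at 9.61, 8.80 and 8.96 in 3MeDAB long rats, against 9.71, 9.57 and 9.75 in GTX control rats, and 1 treated rat lay within the control range. The call of -0.56 ± 0.21 (adjusted p = 0.024) was the only one among the 27 in which treated and control rats overlapped, and it held in 2 of the 6 fits that left out a rat. No other training group was called for Abcb4, with differences between -0.28 and 0.44.

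Abcg5 and Abcg8, the 2 subunits of the sterol pump, fell together in 2-AAF long and 3MeDAB long livers. Abcg5 was measured at 6.26, 6.86 and 6.94 in 2-AAF long rats and at 6.76, 6.22 and 5.62 in 3MeDAB long rats, against 9.50, 8.27 and 8.71 in GTX control rats. The differences were -2.14 ± 0.47 (adjusted p = 0.000757) and -2.63 ± 0.47 (adjusted p = 1.98e-05) for a 6.18-fold lower signal with 3MeDAB. Abcg8 had 4.75, 4.97 and 4.77 in 2-AAF long rats and 4.85, 4.75 and 4.75 in 3MeDAB long rats, against 6.32, 5.43 and 5.64 in GTX control rats. No treated rat reached the lowest control rat for either gene. The Abcg8 differences were -0.96 ± 0.35 (adjusted p = 0.0353) and -1.01 ± 0.35 (adjusted p = 0.0162). The 2-AAF call of Abcg8 held in 1 of 6 fits that left out a rat, and its 3MeDAB call was lost without GTX control replicate 1. In DEN long rats Abcg5 stood at 9.26, 8.39 and 9.84 and overlapped the controls.

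In DL-Ethionine long livers the 2 subunits parted. Abcg5 stood at 6.77, 7.64 and 6.85, against 8.97, 8.71 and 9.11 in NGTX control rats, and fell with a difference of -1.84 ± 0.47 (adjusted p = 0.00127). Abcg8 stood at 6.31, 6.53 and 6.29, against 6.08, 6.08 and 6.24 in the same controls, and its difference of 0.24 ± 0.35 was not called (adjusted p = 0.587). Taken within each array, Abcg8 minus Abcg5 was -0.46, -1.11 and -0.56 in DL-Ethionine long rats, against -2.89, -2.63 and -2.87 in NGTX control rats, a shift of 2.09. The shift was 1.18 in 2-AAF long rats and 1.61 in 3MeDAB long rats against the GTX control, where Abcg8 lay close to the bottom of its own range. This within-array difference was chosen after the values were seen. An exact two-sided permutation test gave p = 0.1 for each of these 3 groups, the smallest that 3 rats against 3 allow, and also for DL-Ethionine short, where the shift was only -0.20. Only 15 of 41 training arrays had Abcg8 above the median signal of all probe sets, so its signal is a low one.

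Abcb1a codes for P-glycoprotein, the canalicular pump for bulky lipophilic drugs, and rose in 5 of 12 groups. On its first probe set it stood at 7.92, 8.26 and 9.27 in 2-AAF long rats, at 7.93, 8.27 and 8.26 in 3MeDAB long rats and at 7.71, 7.68 and 8.66 in DEN long rats, against 6.85, 6.89 and 6.64 in GTX control rats. All 9 rats of these groups lay above all 3 controls, with differences of 1.69 ± 0.34 (adjusted p = 0.000336), 1.36 ± 0.34 (adjusted p = 0.0012) and 1.22 ± 0.34 (adjusted p = 0.0112). The DEN long call was lost without DEN long replicate 3, where the difference was 0.90. DL-Ethionine long rats had 8.91, 8.67 and 9.05 and DL-Ethionine short rats had 8.50, 8.05 and 8.11, against 7.50, 6.79 and 6.48 in NGTX control rats. Both groups lay above every control, with differences of 1.95 ± 0.34 (adjusted p = 1.37e-05) after long treatment and 1.30 ± 0.34 (adjusted p = 0.0221) after short treatment. The short call held in 2 of 6 fits that left out a rat. DEN short rats, at 7.84 and 7.75, also exceeded the controls, but the difference of 1.00 ± 0.38 missed the threshold (adjusted p = 0.0661).

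The second Abcb1a probe set was called higher in the same 4 long groups as the first. It stood at 7.85, 7.52 and 8.80 in 2-AAF long rats, at 7.58, 7.62 and 7.82 in 3MeDAB long rats and at 7.67, 7.40 and 8.43 in DEN long rats, against 6.76, 6.57 and 6.77 in GTX control rats. Its differences were 1.36, 0.97 and 1.13 in those groups and 2.18 in DL-Ethionine long livers, all called in the fit over the 18034 probe sets tested. The probe sets disagreed on the 1,4-Dioxane short group, where the second was called at 1.23 (adjusted p = 0.0282) and the first, at 0.92, was not.

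The probe set shared by Abcb1a and Abcb1b moved much further than either Abcb1a probe set. It stood at 11.91, 12.14 and 12.65 in 2-AAF long rats, at 12.48, 12.80 and 12.81 in 3MeDAB long rats and at 11.15, 10.97 and 11.26 in DEN long rats, against 5.99, 6.00 and 6.11 in GTX control rats. DL-Ethionine long rats had 11.87, 12.04 and 12.27, against 6.12, 5.67 and 5.95 in NGTX control rats. Every treated rat of these 4 groups lay far above every control, with differences of 6.20, 6.67, 5.09 and 6.15, each ± 0.21 and each called. DEN short rats had 7.78 and 7.49, with a smaller called difference of 1.61 ± 0.23. Short treatment with DL-Ethionine and with 1,4-Dioxane was also called higher on this probe set, by 1.12 (adjusted p = 0.00196) and by 0.87 (adjusted p = 0.0117). Abcb1b is the second rodent P-glycoprotein gene, and no probe set annotated to it alone was tested, so the share of each gene in this signal was not tested.

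**Figure D3:**
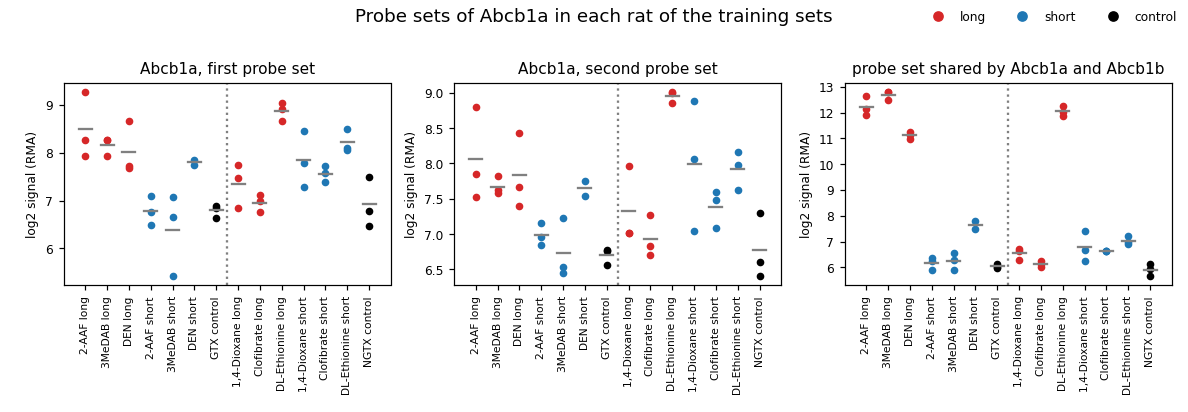
log2 signal of the first and second Abcb1a probe sets and of the probe set shared with Abcb1b in every training rat, 1 panel per probe set with its own axis. Dots are rats, coloured red for long treatment, blue for short treatment and black for control. The shared probe set lies between 10.97 and 12.81 in the long groups of 2-AAF, 3MeDAB, DEN and DL-Ethionine and near 6 in the controls.

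The share of all genes called differed widely between these groups and stands beside the counts. It was 33.1% for 2-AAF long, 54.6% for 3MeDAB long, 54.2% for DL-Ethionine long, 17.1% for DEN long, 0.169% for 1,4-Dioxane long and 0.141% for Clofibrate long. Members were called in 6 of 8 cases for 2-AAF long, 7 of 8 for 3MeDAB long, 6 of 8 for DL-Ethionine long and 2 of 8 for DEN long. After short treatment the share of all genes was 8.81% for 2-AAF, 0.974% for 3MeDAB, 18.1% for DEN, 5.74% for 1,4-Dioxane, 3% for Clofibrate and 5.38% for DL-Ethionine. The members called there were Abcb11, Abcc2 and Abcc4 with DEN, Abcc3 with 1,4-Dioxane and with Clofibrate, and Abcb1a with DL-Ethionine. Treated and control rats did not overlap for 37.6% of all genes in 2-AAF long, 67.4% in 3MeDAB long, 40.9% in DEN long, 20.7% in 1,4-Dioxane long, 20.4% in Clofibrate long and 63% in DL-Ethionine long livers. After short treatment this share was 29.4% with 2-AAF, 17.9% with 3MeDAB, 54% with DEN, 28.5% with 1,4-Dioxane, 26.1% with Clofibrate and 22.7% with DL-Ethionine. A gap between treated and control rats was thus common in these comparisons.

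Differences between compounds of 1 set were tested directly, in 96 tests of which 28 were called, 14 in each direction, a share of 29.2% against 23% over all genes (10.8% higher and 12.2% lower). Among the long groups the share of all genes was 49.7% between 2-AAF and 3MeDAB, 31.6% between 2-AAF and DEN, 50% between 3MeDAB and DEN, 56.5% between 1,4-Dioxane and DL-Ethionine and 56.7% between Clofibrate and DL-Ethionine. Abcc3 was higher in 2-AAF long than in DEN long livers by 2.87 (adjusted p = 5e-06), and in 3MeDAB long than in DEN long livers by 2.27 (adjusted p = 6.61e-05). Abcg5 was lower in 2-AAF long and 3MeDAB long than in DEN long livers, with differences of -2.48 (adjusted p = 0.000117) and -2.97 (adjusted p = 5.74e-06). Abcb11 separated 2-AAF long from 3MeDAB long livers, with a difference of 0.98 ± 0.12 (adjusted p = 9.17e-08). Abcc3 and Abcg5 did not pass between the same groups, with differences of 0.60 (adjusted p = 0.251) and 0.49 (adjusted p = 0.393).

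In the NGTX set DL-Ethionine long stood apart from the other long groups. 1,4-Dioxane long minus DL-Ethionine long was 1.55 for Abcc2 (adjusted p = 7.51e-07), -1.53 for Abcb1a (adjusted p = 0.000316) and -1.07 for Abcc4 (adjusted p = 0.00112). Abcc3 and Abcg5 missed the threshold in that pair, at -0.89 (adjusted p = 0.0774) and 1.04 (adjusted p = 0.0572). Clofibrate long minus DL-Ethionine long was called for Abcc3 at -1.44 (adjusted p = 0.00496) and for Abcg5 at 1.09 (adjusted p = 0.0476). The Abcg5 call was lost in 4 of 6 fits that left out a rat, among them Clofibrate long replicate 1, where it was 0.57. Abcg8 was lower in 1,4-Dioxane long and Clofibrate long than in DL-Ethionine long livers, with differences of -0.88 (adjusted p = 0.0349) and -0.85 (adjusted p = 0.0417), and these calls were lost in 4 and 5 of 6 such fits. Between 1,4-Dioxane long and Clofibrate long 0 of the 10675 genes were called, members included.

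The mean effect of the 3 genotoxic compounds was set against that of the 3 nongenotoxic ones, each relative to its own control. 2 of 16 tests were called, 12.5% against 8.84% over all genes (5.25% higher and 3.59% lower), or 12.1% of all genes after long and 5.57% after short treatment. Abcb11 was lower in the genotoxic class after long treatment, with a difference of -0.64 ± 0.14 (adjusted p = 0.00216), but the compounds overlapped, at -0.34 for DEN long and -0.36 for DL-Ethionine long. Abcc3 was lower in the genotoxic class after short treatment, with a difference of -1.68 ± 0.50 (adjusted p = 0.044), and that call held in 10 of 23 fits that left out a rat. The classes lie in separate sets of arrays, so class and set cannot be told apart beyond the control subtracted, and a comparison of 3 compounds with 3 could not reach an exact p under 0.1.

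Long was compared with short treatment of the same compound. No separate control group was given for each treatment length, so effects of the compound, of time and of the number of doses cannot be told apart here. In the training sets 20 of 48 tests were called, 9 higher and 11 lower, a share of 41.7% against 31.6% over all genes (19.1% higher and 12.5% lower). By compound the share of all genes was 36.8% with 2-AAF, 60.1% with 3MeDAB, 30.8% with DEN, 5.49% with 1,4-Dioxane, 3.55% with Clofibrate and 52.6% with DL-Ethionine. Abcc3 was higher after long than after short treatment by 3.40 with 2-AAF (adjusted p = 4.3e-07) and by 3.10 with 3MeDAB (adjusted p = 3.47e-07). Abcc4 was higher after long treatment by 2.11 with 2-AAF (adjusted p = 5.15e-07), by 1.36 with 3MeDAB (adjusted p = 7.41e-05) and by 1.05 with DEN (adjusted p = 0.00777). Abcg5 was lower after long treatment, with differences of -2.26 with 2-AAF, -2.10 with 3MeDAB and -2.44 with DL-Ethionine. For Abcb1a the long treatment gave the higher signal with 2-AAF by 1.71 (adjusted p = 0.000216) and with 3MeDAB by 1.77 (adjusted p = 4.95e-05). With DL-Ethionine, where Abcb1a was called after both treatments, the long minus short difference of 0.66 was not called (adjusted p = 0.105) on the first probe set, while the second probe set gave 1.03 and was called.

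**Figure D4:**
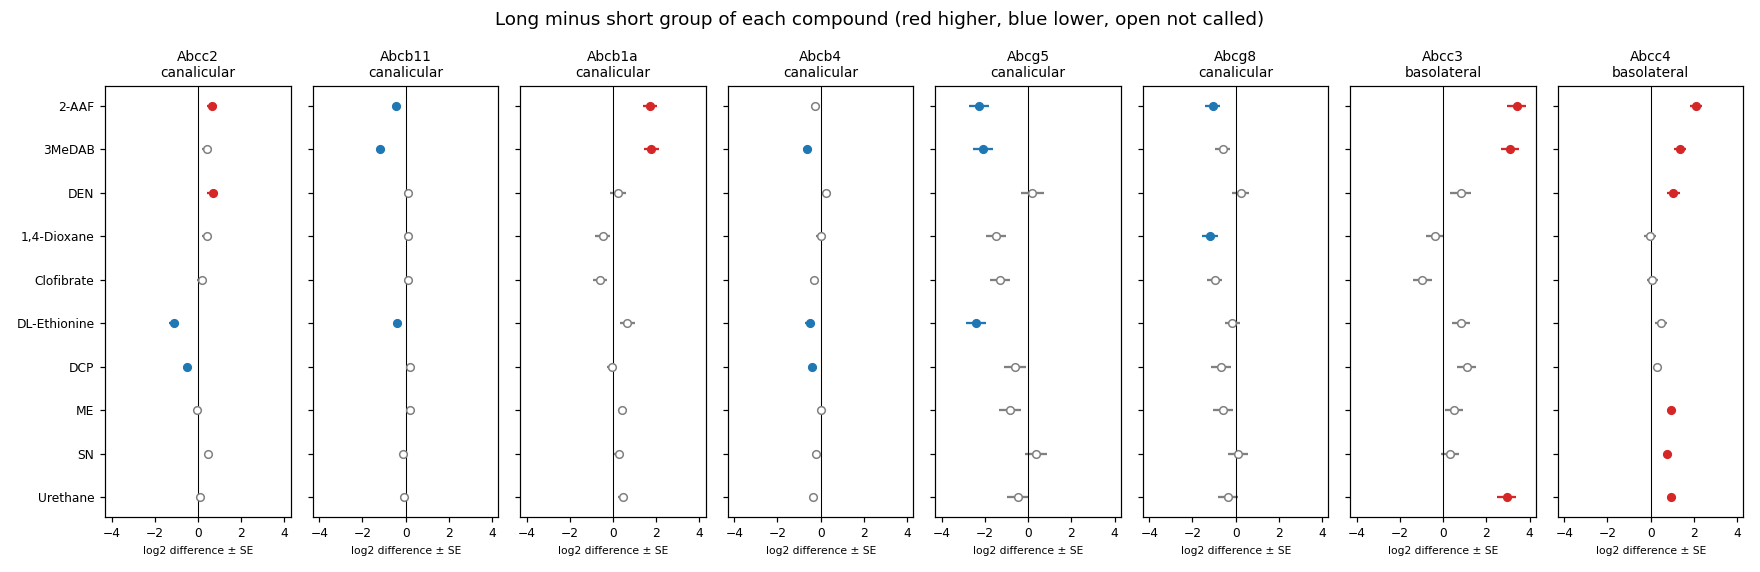
Long minus short difference in log2 signal, with its standard error, for each of the 8 pumps and the 10 compounds. Filled red dots are called higher after long treatment, filled blue dots are called lower and open dots are not called. Abcc4 is called higher with 2-AAF, 3MeDAB, DEN, ME, SN and Urethane, and Abcg5 is called lower with 2-AAF, 3MeDAB and DL-Ethionine.

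The test set had no controls, so each compound was set against the mean of the other 3 at the same treatment length. 12 of 64 tests were called, 7 higher and 5 lower, a share of 18.8% against 16.6% over all genes (7.65% higher and 8.92% lower). A difference here is relative to other treated rats and does not show which side moved. How many of all genes had no overlap between the compared rats was not computed in the test set. Abcc3 stood at 8.77, 8.72 and 9.50 in Urethane long rats, against 8.13, 8.45 and 7.30 in DCP long, 5.88, 7.22 and 6.95 in ME long and 6.30, 7.36 and 6.02 in SN long rats. The 3 Urethane rats were the highest of the 12, with a difference of 1.93 ± 0.35 from the other 3 compounds (adjusted p = 0.00128 by limma over 10245 genes). Abcc4 was also higher in Urethane long rats, at 7.74, 7.37 and 7.52, against 6.87 to 7.35 in the other long rats, by 0.50 ± 0.11 (adjusted p = 0.00624). That call was lost without Urethane long replicate 1. SN long livers had lower Abcc3, with a difference of -1.32 ± 0.35 (adjusted p = 0.0349), a call that held in 5 of 12 fits that left out a rat.

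DCP livers had lower signals of Abcc2 after long treatment, and of Abcb11 after both treatments, than the livers of the other test compounds. Abcc2 was measured at 10.36, 10.32 and 10.80 in DCP long rats, against 11.03 to 11.42 in ME long, 11.22 to 11.49 in SN long and 10.93 to 11.31 in Urethane long rats. All 3 DCP rats lay below the other 9, with a difference of -0.75 ± 0.11 (adjusted p = 4.9e-05). After short treatment Abcc2 was not called for DCP, at 10.88, 11.15 and 11.04 in DCP short rats and a difference of -0.05 (adjusted p = 0.756). Abcb11 stood at 11.31, 11.39 and 11.44 in DCP short rats and at 11.59, 11.71 and 11.41 in DCP long rats, against 11.70 to 12.11 in the rats of the other compounds. The differences were -0.53 ± 0.06 after short treatment (adjusted p = 3.01e-06) and -0.36 ± 0.06 after long treatment (adjusted p = 0.000301). In DCP short rats Abcb1a was higher by 0.66 ± 0.17 (adjusted p = 0.00444) on its second probe set, the one used for the test set, and Abcb4 was higher by 0.39 ± 0.12 (adjusted p = 0.0151). The first Abcb1a probe set had a mean of 7.49 in DCP short livers. It stood at 6.05 in ME short, 6.07 in SN short and 6.17 in Urethane short livers. After long treatment its means were 7.37 with DCP, 6.81 with ME, 6.70 with SN and 6.88 with Urethane. With the mean of both probe sets Abcb1a was called higher in DCP long livers by limma, by 0.40 (adjusted p = 0.0169). The Abcb4 call was lost without DCP short replicate 3. Of all genes 41.9% were called in DCP short and 37.6% in DCP long, while the share was 13.9% in Urethane long, 5.2% in SN long and 2.97% in ME long, and 7.58% in Urethane short, 14.2% in SN short and 9.22% in ME short.

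The remaining calls of the test set were small or rested on few rats. Abcb11 was higher in SN short livers by 0.32 ± 0.06 (adjusted p = 0.00416) and in Urethane short livers by 0.25 ± 0.06 (adjusted p = 0.0266), where the 3 compounds in the mean include DCP. Abcc2 was higher in SN long livers by 0.44 ± 0.11 (adjusted p = 0.0275 by limma), which held in 9 of 12 fits that left out a rat. The 3 compounds in that mean include DCP, at 10.49. Abcc4 was lower in DCP long livers, with a difference of -0.31 ± 0.11 (adjusted p = 0.0386 by limma), which held in 5 of 12. Its means were 6.94 in DCP long, 7.06 in SN long, 7.13 in ME long and 7.54 in Urethane long rats. No member was called for ME against the other compounds, and Abcg5 and Abcg8 were called for none of the 4 compounds. After quantile normalization Abcc4 did pass as lower in ME short livers by limma, at -0.36 (adjusted p = 0.0489). The probe set shared by Abcb1a and Abcb1b stood at 8.62, 7.84 and 8.80 in Urethane long rats and at 8.84, 8.81 and 7.40 in DCP long rats, against 6.25, 5.95 and 5.73 in ME long and 5.97, 5.74 and 5.64 in SN long rats.

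Within the test set long was also compared with short treatment, and 6 of 32 tests were called, 4 higher and 2 lower, a share of 18.8% against 18.9% over all genes (11% higher and 7.89% lower). By compound the share of all genes was 39.9% with DCP, 16.9% with ME, 5% with SN and 13.7% with Urethane. Abcc3 was higher after long treatment with Urethane by 2.93 (adjusted p = 0.000418), at 8.77, 8.72 and 9.50 in long rats, against 6.51, 6.03 and 5.65 in short rats. Abcc4 was higher after long treatment with ME by 0.96 (adjusted p = 0.000346), with Urethane by 0.92 (adjusted p = 0.00048) and with SN by 0.77 (adjusted p = 0.00508). As this set had no controls, effects of the compound, of time and of the number of doses cannot be told apart for any of these compounds. The long and short rats did not overlap for Abcc4 with any of these 3 compounds. The share of all genes without such an overlap was not computed for these comparisons. The basolateral members were called higher in 4 of 8 tests, and the canalicular members were called lower in 2 of 24, both with DCP (Abcc2 and Abcb4). Abcb1a was read here from its second probe set. With the mean of both its probe sets, limma called Abcb1a higher after long treatment with ME and with Urethane. Those differences were 0.59 (adjusted p = 0.0136) and 0.58 (adjusted p = 0.0163).

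**Figure D5:**
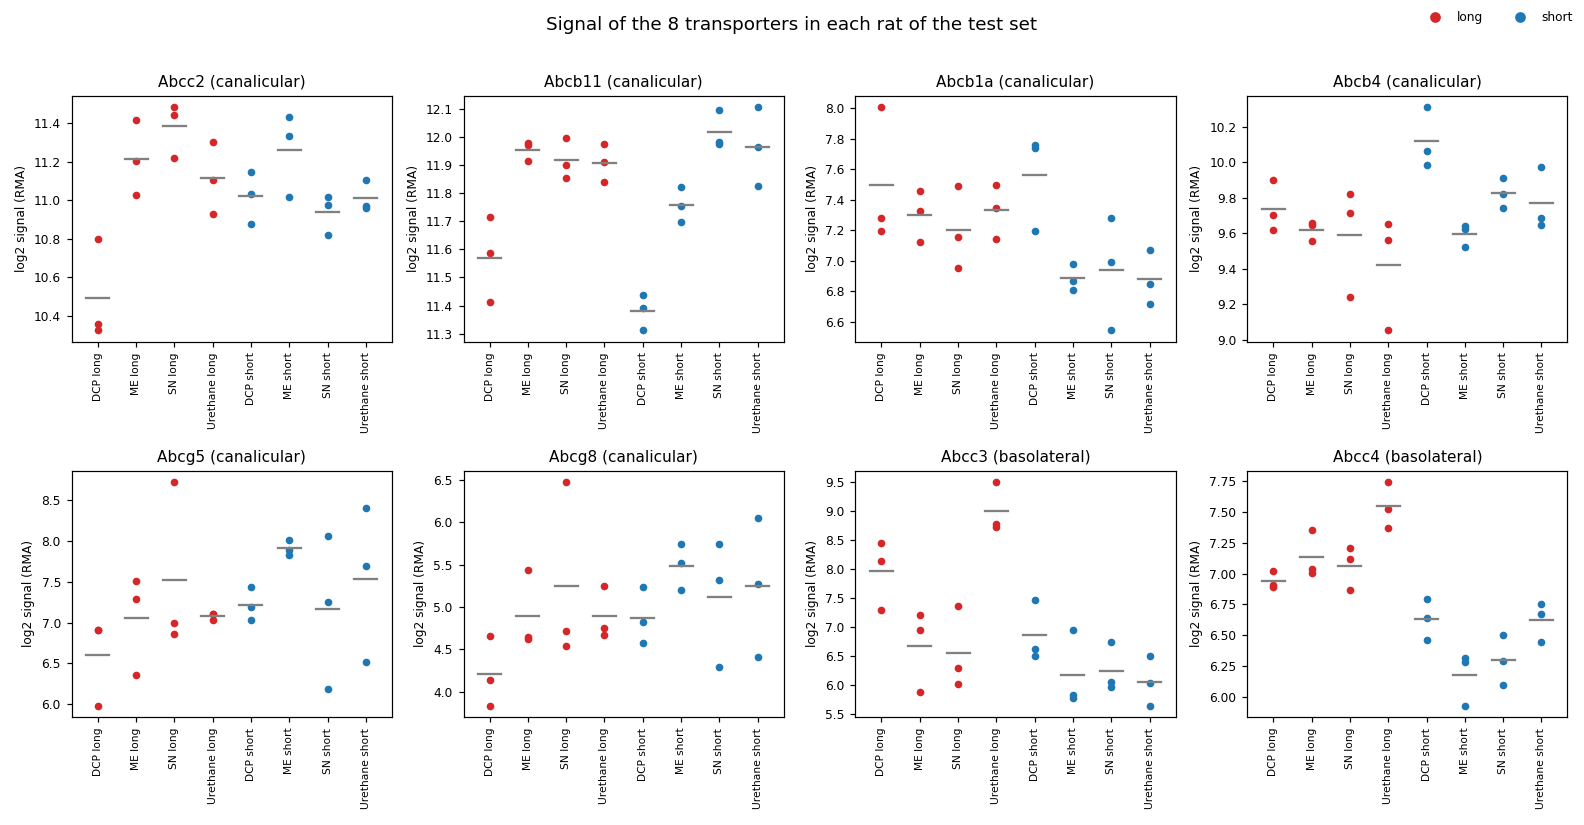
log2 signal of the 8 pumps in every rat of the test set, 1 panel per gene with its own axis. Dots are rats, red for long and blue for short treatment, and grey bars are group means. In the Abcc3 panel the Urethane long rats, at 8.72 to 9.50, lie above the rats of every other group.

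The other genes of hepatic transport were read from fixed lists. Over all genes 16.5% were called higher and 16.6% lower in 2-AAF long livers, 36.9% and 17.7% in 3MeDAB long, 10.5% and 6.54% in DEN long and 30.7% and 23.5% in DL-Ethionine long livers, and the counts of the lists are to be read against these shares. Of 49 other ABC transporter genes 26 were tested, with 4 higher and 9 lower in 2-AAF long, 7 and 7 in 3MeDAB long, 4 and 1 in DEN long and 8 and 11 in DL-Ethionine long livers. Abcc6, a basolateral hepatic ABC transporter needed to keep ectopic mineral from forming, fell, with differences of -0.65 in 2-AAF long, -1.36 in 3MeDAB long and -2.64 in DL-Ethionine long livers. Of 18 other bile and drug transporter genes 12 were tested, with 1 higher and 5 lower in 2-AAF long, 1 and 8 in 3MeDAB long, 1 and 3 in DEN long and 0 and 7 in DL-Ethionine long livers. Slc10a1, the sodium-dependent bile salt importer of the basolateral membrane (NTCP), fell, with differences of -3.62 in 3MeDAB long and -3.23 in DL-Ethionine long livers. It was not called in 2-AAF long livers, at -0.42 (adjusted p = 0.351). Slc22a8, an organic anion importer, fell, with differences of -4.11 in DL-Ethionine long, -2.81 in 3MeDAB long and -1.32 in 2-AAF long livers.

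Genes of the known regulators were counted in the same way. Of 18 regulator genes 15 were tested, and 3 were higher and 2 lower in 2-AAF long, 3 and 4 in 3MeDAB long, 1 and 2 in DEN long and 5 and 3 in DL-Ethionine long livers. Nr1h4, which codes for FXR, the bile acid receptor that induces Abcb11, was lower in all 4 of these groups, with differences of -0.70 with 2-AAF, -1.31 with 3MeDAB, -0.84 with DEN and -0.42 with DL-Ethionine. Nr1h4 was chosen after its values were seen, and whether it bears on Abcb11 in these livers was not tested. Of the 6 FXR target genes tested 0 were higher and 3 lower in 2-AAF long livers, 0 and 5 in 3MeDAB long, 0 and 1 in DEN long and 1 and 4 in DL-Ethionine long livers. That list mixes genes that FXR induces, such as Nr0b2, with genes that it represses, such as Cyp7a1. Its counts therefore give no direction of FXR activity. Of the 7 LXR target genes tested, a receptor known to induce Abcg5 and Abcg8, 1 was higher and 4 lower in 2-AAF long, 2 and 3 in 3MeDAB long, 1 and 1 in DEN long and 2 and 2 in DL-Ethionine long livers. Scd, the stearoyl-CoA desaturase on that list, fell, with differences of -5.47 in 2-AAF long, -5.71 in 3MeDAB long and -2.04 in DEN long livers. Whether LXR bears on Abcg5 and Abcg8 in these livers was not tested.

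NRF2 target genes, which in rodents include Abcc3 and Abcc4, were read from 8 tested genes that are not members. 7 were higher and 0 lower in 2-AAF long livers with a median difference of 1.34, 6 and 0 in 3MeDAB long livers with a median of 1.20, 2 and 0 in DEN long livers with a median of 0.15, and 4 and 1 in DL-Ethionine long livers with a median of 0.70. In Urethane long livers 6 were higher and 0 lower than in the other 3 test compounds, with a median of 0.72, against 6.08% higher and 7.78% lower over all genes. In DCP short livers 7 were higher and 0 lower, with a median of 1.52. Abcc3, at 0.70 (adjusted p = 0.119), and Abcc4, at 0.27 (adjusted p = 0.0644), were not called there. In alternative limma fits Abcc4 did pass in DCP short livers. It did so after quantile normalization, at 0.29 (adjusted p = 0.0451), and with the replicate number as a block, at 0.27 (adjusted p = 0.0498). The mean signal of the 8 genes was 10.84 in DCP short livers, against 8.56 in ME short, 8.67 in SN short and 8.53 in Urethane short livers. Over all genes 13.5% were called higher and 28.4% lower in DCP short livers. Srxn1, sulfiredoxin, rose by 2.12 in 2-AAF long, 3.70 in 3MeDAB long, 1.31 in DEN long, 2.94 in DL-Ethionine long and 1.24 in Urethane long livers. Nqo1, a quinone reductase, rose by 1.49 in 2-AAF long, 1.35 in 3MeDAB long and 1.18 in Urethane long livers, and stood at 0.15 in DEN long and 0.51 (adjusted p = 0.0761) in DL-Ethionine long livers without passing. Whether these genes and the pumps share control was not tested.

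Of the 4 AHR target genes tested 2 were higher and 0 lower in 2-AAF long, 1 and 0 in 3MeDAB long, 0 and 1 in DEN long and 0 and 1 in DL-Ethionine long livers. Cyp1a1, a cytochrome P450 gene widely used as a readout of AHR, rose by 6.50 with 2-AAF and by 6.59 with 3MeDAB. Of the 7 CAR and PXR target genes tested 5 were higher and 0 lower in 2-AAF long, 2 and 1 in 3MeDAB long, 2 and 0 in DEN long and 4 and 1 in DL-Ethionine long livers. Of the 8 PPAR alpha target genes tested 1 was higher and 2 lower in 2-AAF long, 1 and 2 in 3MeDAB long, 0 and 2 in DEN long and 5 and 0 in DL-Ethionine long livers.

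Markers of liver cell types moved in some of the same groups. Hepatocyte markers, 11 of 12 measured, had a mean log2 signal between 13.35 for Urethane long and 13.85 for DL-Ethionine short over the 22 groups, so the livers showed their labelled tissue. Macrophage markers, 8 of 10 tested, were 0 higher and 5 lower in 2-AAF long, 6 and 0 in 3MeDAB long, 5 and 0 in DEN long and 8 and 0 in DL-Ethionine long livers. Their mean signal was 9.28 to 9.72 in 2-AAF long rats, 10.44 to 10.83 in 3MeDAB long rats and 10.60 to 10.77 in DEN long rats, against 9.95 to 10.18 in GTX control rats. It was 10.86 to 11.27 in DL-Ethionine long rats, against 9.44 to 9.75 in NGTX control rats. In both 2-AAF long and 3MeDAB long livers Abcc3 was higher and Abcg5 lower, and whether these markers bear on that was not tested. Of 9 endothelial markers tested 0 were higher and 1 lower in 2-AAF long, 0 and 1 in 3MeDAB long, 0 and 0 in DEN long and 6 and 0 in DL-Ethionine long livers, and of 5 bile duct markers 1 and 1, 2 and 0, 0 and 0 and 1 and 2 were called in the same order of groups. In that order of groups, 3 higher and 4 lower, 3 and 2, 3 and 0 and 2 and 0 of 10 stellate cell and fibroblast markers were called, 0 and 2, 2 and 1, 2 and 1 and 1 and 2 of 5 leukocyte markers, and 1 and 1, 1 and 1, 1 and 1 and 0 and 1 of 4 pancreas and gut markers. The part of these cells in the results was not tested. The Gapdh probes for the 3′ end minus those for the 5′ end, a sign of RNA quality, stood at 0.19 to 0.95 in 2-AAF long rats, at 0.24 to 0.39 in 3MeDAB long rats and at 0.52 to 0.84 in DEN long rats, against 0.44 to 0.63 in GTX control rats, and at 0.59 to 0.86 in DL-Ethionine long rats, against 0.50 to 0.91 in NGTX control rats. The 2-AAF long rats had the widest spread of all groups, and the 3MeDAB long rats lay below every GTX control rat. The part of this measure in the results was not tested.

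The genes whose pattern was most like that of each member were sought over the 22 group means, centred within each set, among 4347 genes that varied by at least 1 log2 unit. The correlations are a description over groups that share controls and arrays. Abcc3 was most like Gsta3, a glutathione transferase, with r = 0.951, and Aldh1a1, a retinal dehydrogenase, with r = 0.914. Abcb11 was most like Cbs, cystathionine beta-synthase, with r = 0.931. Abcb1a was most like Mdm2, a ubiquitin ligase induced by p53, with r = 0.869. Abcc2 was most like Acad8 with r = 0.882, Abcc4 was most like Nsmce1 with r = 0.883 and Abcg5 was most like Rgn with r = 0.845. Abcg8 was most like its partner Abcg5 with r = 0.785, and Abcb4 was most like Nr0b2, the small heterodimer partner, with r = 0.754. Among the members, Abcc3 and Abcc4 had r = 0.856, Abcg5 and Abcc4 had r = -0.717 and Abcc3 and Abcg5 had r = -0.654.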

How the data were processed

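The log2 values analysed are those the authors deposited, made by robust multi-array averaging (RMA) per the submitters' processing notes, 1 column per rat, and its version is not given in the sources used here. The lowest values, 3.33 to 3.41 in the GTX set, 3.23 to 3.30 in the NGTX set and 2.28 to 2.40 in the test set, differ between sets, so no group was compared across them other than through its own control. Symbols came from the platform annotation: 1 symbol was given for 20826 probe sets, more than 1 for 436 and no symbol for 9780, apart from 57 array controls that did not enter. Arrays give no read depth, so precision is limited by their number. The labels do not say that rats were independent beyond naming each separately.

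Each gene was read from its probe set of highest mean, and kept where at least 2 arrays lay above the median (6.21 in the training sets, 5.64 in the test set). Abcb1a was therefore read from its first probe set in the training sets and its second in the test set. limma 3.58.1 in R 4.3.3 fitted 1 mean per group to the 41 training arrays (10675 genes, 27 residual degrees of freedom) and, apart, to the 24 test arrays (10245 genes, 16). p-values were adjusted by Benjamini-Hochberg within a comparison over all genes, with a threshold of 0.05. On simulated data 92% of log2 changes of 1 and 99% of log2 changes of 2 were recovered for 2-AAF long with 6 false calls, and 98% and 100% for DCP long with 15. The simulation changed 200 genes and drew the noise of each gene independently. Smaller changes were not simulated, and many more genes were called in the data, so these figures need not hold there. The members, lists and tests were chosen with earlier results of these data known. Named in the text are the 8 members, at most the 3 called genes of largest difference per list and family of comparisons, genes that report a regulator, and for likeness the nearest 2 genes by correlation, of which the text gives 1 or 2. Alternatives were other filters, probe set rules, scalings, fits, the replicate number as a block and each rat left out. Figures were drawn with matplotlib 3.10.9.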

Additional observations from a re-analysis of the deposited data

Results flagged for a closer look

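Each pump listed here differed between the long and the short treatment of the same compound, by the limma test of that difference with Benjamini-Hochberg adjustment over all genes. Values are long minus short log2 differences. The counts are to be read against the share of all genes called in the same comparison. That share was 36.8% with 2-AAF, 60.1% with 3MeDAB, 30.8% with DEN, 52.6% with DL-Ethionine and 5.49% with 1,4-Dioxane. With 2-AAF, 7 of 8 members were called: Abcc3 at 3.40, Abcc4 at 2.11, Abcb1a at 1.71, Abcc2 at 0.66, Abcb11 at -0.43, Abcg8 at -1.06 and Abcg5 at -2.26. With 3MeDAB, 6 were called, Abcc3 at 3.10, Abcb1a at 1.77, Abcc4 at 1.36, Abcb4 at -0.62, Abcb11 at -1.20 and Abcg5 at -2.10. DEN gave Abcc4 at 1.05 and Abcc2 at 0.68, where the Abcc2 call was lost without any 1 of the 5 rats. DL-Ethionine gave Abcb11 at -0.39, Abcb4 at -0.50, Abcc2 at -1.11 and Abcg5 at -2.44, and 1,4-Dioxane gave Abcg8 at -1.19 (adjusted p = 0.0425).

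In the test set Urethane gave Abcc3 at 2.93 and Abcc4 at 0.92, ME gave Abcc4 at 0.96 and SN gave Abcc4 at 0.77. DCP gave Abcc2 at -0.53 and Abcb4 at -0.38, the second with an adjusted p of 0.0499 by limma. Of all genes 39.9% were called with DCP, 16.9% with ME, 5% with SN and 13.7% with Urethane. When 1 rat of the compared groups was left out at a time, only part of the fits kept the calls of Abcc2 and Abcg8 with 2-AAF (3 and 5 of 6), Abcb4 with 3MeDAB (2 of 6), Abcc4 with DEN (4 of 5), Abcg8 with 1,4-Dioxane (2 of 6), Abcb4 with DL-Ethionine (1 of 6) and Abcb4 with DCP (2 of 6). Groups of 2 or 3 rats were too small for a test of single outlying rats. Compound, time and number of doses cannot be told apart in these differences, since no separate control group was given for each treatment length.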

How the results depend on the processing

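No named call reversed its direction under any alternative run. Without the filter on low signals the class comparison called 1 member test in place of 2. When each rat was left out in turn, the calls against the own control ran between 20 and 29, fewest without GTX control replicate 3, those of long against short between 18 and 22, those between compounds between 23 and 31, those of the class comparison between 1 and 4, and in the test set those against the other compounds between 9 and 13 and those of long against short between 5 and 8. Of 95 calls, 10 were lost with no filter, 0 with the mean of all probe sets of a gene, 1 with a trended and robust fit, 1 with median-centred columns, 3 with quantile normalization and 12 in 1 fit of all 65 arrays. 14 of 90 were lost when only the arrays of the compared groups were fitted, 11 of 87 when only those of the set or treatment length were, and 0 of 70 under the stricter filter. Abcc4 and Abcg8 did not pass that filter, so their calls are not among the 70. The set or length alternative was not run for the class comparison and for long against short in the test set. Quantile normalization moved the median of all genes by over 0.1 only in comparisons with 3MeDAB long (0.14 as deposited against 0.03). Some comparisons not called in the main fit passed in alternatives. Abcb1a in DEN short passed with quantile normalization, with only the arrays compared and in the fit of all 65 arrays. Abcb1a in 1,4-Dioxane short passed with the mean of all probe sets, with only the arrays of the set and in the fit of all 65. Abcc3 in DL-Ethionine short passed under the stricter filter and in the fit of all 65.

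With the replicate number as a block the counts were 26 against the own control, 20 for long against short, 29 between compounds, 2 for the class comparison, and 13 and 6 in the test set, against 27, 20, 28, 2, 12 and 6 without it. Rats of the same number did not in general deviate together, with a median correlation of 0.0068 in the GTX set, -0.00046 in the NGTX set and -0.0057 in the test set. The highest correlation of such rats was 0.22, 0.23 and 0.36 in the same order. The medians show no pairing across a whole set, and they cannot show whether rats of some groups were paired. The calls lost under the block were Abcc2 in DEN short, Abcc2 in DEN long against short and Abcb4 in DCP long against short.

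Of the calls against the own control or, in the test set, against the other compounds, those that held under every alternative that tested them and every left-out rat were Abcb1a, Abcg5, Abcc3 and Abcc4 in 2-AAF long and 3MeDAB long, Abcb11 in 3MeDAB long, all 6 in DL-Ethionine long, and in the test set Abcc2 and Abcb11 in DCP long, Abcb11 and Abcb1a in DCP short, Abcb11 in SN short and Abcc3 in Urethane long. Abcc4 did not pass the stricter filter and was not tested under it. Precision is limited by 2 or 3 rats a group and by the low signal of Abcg8.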

Other observations

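Among the other ABC transporter genes, Tap1, a subunit of the transporter that supplies peptides to MHC class I molecules, was higher by 1.14 in 3MeDAB long, by 1.02 in DEN long and by 1.51 in DL-Ethionine long livers, each called by limma over all genes, and was not called in 2-AAF long livers, at -0.01. Nr1i3, which codes for the receptor CAR, was lower in DL-Ethionine long livers, with a difference of -3.63, and Nr0b2, the small heterodimer partner that FXR induces, was lower in 3MeDAB long livers, with a difference of -3.16. Cyp7a1, the rate-limiting enzyme of bile acid synthesis from cholesterol, was higher in DL-Ethionine long livers by 3.32, where Abcb11 and Abcc2 were lower.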
